A study of Mus musculus with 6 samples.

Results

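Globin and erythroid genes were followed in neonatal mouse hindlimb muscle through 8 genes chosen by name: the adult alpha globins Hba-a1 and Hba-a2, the adult beta globins Hbb-bs and Hbb-bt, the haem enzyme gene Alas2, the red cell membrane genes Slc4a1 and Epb42, and Ahsp, which encodes an alpha globin chaperone. Of these 8 names 7 were found among the 39010 genes of the deposited table, each on 1 row, with Epb42 listed under its older symbol and matched by gene identifier. Ahsp is not analysed here. The study profiled wild-type mice from a mixed strain background at 3 ages, postnatal day 2 (P2), day 7 (P7) and day 14 (P14), with 2 libraries per stage and 6 in all. All groups shared the genotype, and no agent or allele is named for any of them. Each library came from 200 ng of total RNA of hindlimb skeletal muscle after ribosomal depletion. The study's stated purpose was to profile gene expression in muscle growing after birth. The series' design text calls the replicates biological without saying whether each is a separate animal, so p-values measure the spread between these samples.

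Adult haemoglobin is a tetramer of alpha and beta chains that each hold a haem group. Erythroblasts make these chains in the marrow and, around birth, in the liver and spleen, and the young red cells that leave these sites keep globin mRNA for a time after losing their nucleus. Alas2 carries out the first step of haem synthesis in erythroid cells. Slc4a1 encodes band 3, the anion exchanger of the red cell membrane, and Epb42 encodes protein 4.2, which binds band 3 and links it to the membrane skeleton. Muscle tissue holds blood, so its RNA holds transcripts of these cells. In bulk RNA, fewer cells of a type and less RNA per cell cannot be told apart.

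The stretch of 250 bases before the RefSeq start of the genes is shown because it lets the members be compared at the place where erythroid factors are known to bind globin and haem genes. RefSeq windows on GRCm38.p6 were found for 6 of the 7 measured genes, and Hba-a2 is left out below because 247 of 247 aligned bases of its window equal those of Hba-a1, with a shift of 3 bases. Capitals mark matches on either strand to the motifs searched. Forms of the GATA motif were AGATAA, the related TGATAA, also AGATAG, and with them TGATAG. The others were CACCC, bound by Klf1 among other factors, then the CCAAT box, and TATAA as in the TATA box. The sequences run 5′ to 3′ on the gene's own strand.
Hba-a1, chr11:32283422-32283671, plus strand: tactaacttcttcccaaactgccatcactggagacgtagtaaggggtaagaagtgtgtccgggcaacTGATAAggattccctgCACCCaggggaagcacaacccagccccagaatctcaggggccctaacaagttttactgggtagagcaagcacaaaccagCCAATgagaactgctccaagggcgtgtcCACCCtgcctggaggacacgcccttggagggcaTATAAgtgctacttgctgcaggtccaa
Hbb-bs, chr7:103827929-103828178, minus strand: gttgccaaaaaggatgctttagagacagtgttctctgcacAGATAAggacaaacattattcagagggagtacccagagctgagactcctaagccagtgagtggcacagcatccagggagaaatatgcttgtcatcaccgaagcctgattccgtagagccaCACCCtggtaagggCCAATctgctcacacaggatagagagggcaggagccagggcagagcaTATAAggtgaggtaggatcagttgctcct
Hbb-bt, chr7:103813924-103814173, minus strand: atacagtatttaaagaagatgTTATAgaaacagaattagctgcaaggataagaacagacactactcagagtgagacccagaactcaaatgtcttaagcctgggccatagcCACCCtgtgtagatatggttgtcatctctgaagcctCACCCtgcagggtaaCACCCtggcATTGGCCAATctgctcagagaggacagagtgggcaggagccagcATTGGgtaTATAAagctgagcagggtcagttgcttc
Alas2, chrX:150547167-150547416, plus strand: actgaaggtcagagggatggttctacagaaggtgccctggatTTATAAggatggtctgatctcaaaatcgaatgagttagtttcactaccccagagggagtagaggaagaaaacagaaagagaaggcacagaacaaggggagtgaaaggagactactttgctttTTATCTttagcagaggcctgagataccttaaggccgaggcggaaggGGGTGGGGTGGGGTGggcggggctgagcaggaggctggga
Epb42, chr2:121036878-121037127, minus strand: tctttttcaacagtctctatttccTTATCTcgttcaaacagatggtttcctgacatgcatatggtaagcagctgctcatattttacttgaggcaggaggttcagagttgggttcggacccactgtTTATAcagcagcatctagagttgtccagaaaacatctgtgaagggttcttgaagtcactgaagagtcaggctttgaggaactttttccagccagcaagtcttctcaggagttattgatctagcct

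A GATA form was present in the windows of Hba-a1, Hbb-bs, Alas2 and Epb42 but not in that of Hbb-bt, and any of the 4 forms occurred in 26.5% of all 32851 mouse windows of the same length. AGATAA alone occurred in 9.99% of them, TGATAA in 7.94%, AGATAG in 7.71% and TGATAG in 6.35%. The CACCC letters were found in both alpha, both beta and the Alas2 windows, where 3 matches adjoin each other, and not in Epb42, against 52.0% of all windows. CCAAT was found in the alpha and beta windows and in 33.8% of all windows. TATAA was found in all 6 windows and in 22.8% of all windows, and in Alas2 its matches on both strands overlap. In the globin windows a TATAA began 27 to 30 bases before the start. These are matches of letters only.

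FPKM is a fragment count divided by transcript length and by the number of mapped fragments, so levels can be set side by side between genes. The absolute depth of the libraries is unknown. Relative depth, read from the smallest value steps of genes of equal length, was 71.8% to 96.5% of that of P2 replicate 1 in the other 5 libraries. This estimate rests on 7 transcript lengths. It gives depth only if each library was divided by its own number of mapped fragments, which is not stated. Between 12175 and 13337 genes per library reached 1 FPKM. Libraries of a stage correlated across 13566 tested genes at 0.952 to 0.967, where genes are not independent replicates. P2 replicate 2 stood above P2 replicate 1 over all tested genes, with a median log2 difference of 0.246, against 0.01 at P7 and -0.13 at P14.

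Globin transcripts were abundant at every stage, and the replicates lay furthest apart at P2. Hbb-bs (chromosome 7, 103826534 to 103828096 on GRCm38) was the highest member in all 6 libraries. Its level was 312.1 and 708.1 FPKM at P2, 326.4 and 324.9 at P7, and 309.1 and 311.5 at P14. P2 replicate 2 alone stood far above the others, and P2 replicate 1 lay between the libraries of P7 and P14. Hbb-bt (chromosome 7, 103812524 to 103813996), the neighbouring adult beta gene, showed 152.8 and 308.4 FPKM at P2, 152.8 and 143.7 at P7, and 140.1 and 134.3 at P14. Again P2 replicate 2 was 2.02-fold its partner while the other 5 libraries lay close together.

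The alpha globins were highest in the same library. Hba-a1 (chromosome 11, 32283511 to 32284465) was at 234.3 and 447.2 FPKM at P2, 215.8 and 185.1 at P7, and 168.3 and 169.1 at P14. Hba-a2 (chromosome 11, 32296489 to 32297298) was at 265.6 and 430.1 FPKM at P2, 260.1 and 231.1 at P7, and 214.5 and 207.7 at P14. For both alpha genes and Hbb-bt the 3 stages did not overlap, with P2 replicate 1 and P7 replicate 1 of Hbb-bt both at 152.8 after rounding, and among all tested genes P7 lay below P2 without overlap in 53.9% and P14 below P7 in 15.3%. Hba-a2 was above Hba-a1 in every library but P2 replicate 2. Of all 50-base stretches in the Hba-a2 transcript 86.9% also occur in that of Hba-a1, and 65.8% of those of Hbb-bs occur in Hbb-bt (GENCODE M21). How reads that match both copies were assigned is not stated, so the level of each copy is uncertain, while the sum of a pair is less so.

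From P2 to P14 none of the 4 globin genes passed the test. The difference in log2(FPKM + 1) was -0.94 for Hba-a1 (SE 0.324, adjusted p = 0.0779 by limma with Benjamini-Hochberg adjustment over all tested genes). It was -0.68 for Hba-a2 (SE 0.277, limma adjusted p = 0.12), -0.66 for Hbb-bt (SE 0.333, limma adjusted p = 0.19) and -0.60 for Hbb-bs (SE 0.38, limma adjusted p = 0.287). All P14 libraries lay below all P2 libraries for each of them, as they did for 35.2% of all tested genes. These outcomes turned on P2 replicate 1 and on scaling. Without that library, or after quantile normalization or scaling to the FPKM sum without globins, all 4 were called lower at P14, with Hbb-bs at -1.19, -1.18 and -0.93. With P2 replicate 2 left out instead, Hbb-bs differed by -0.01.

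**Figure D1:**
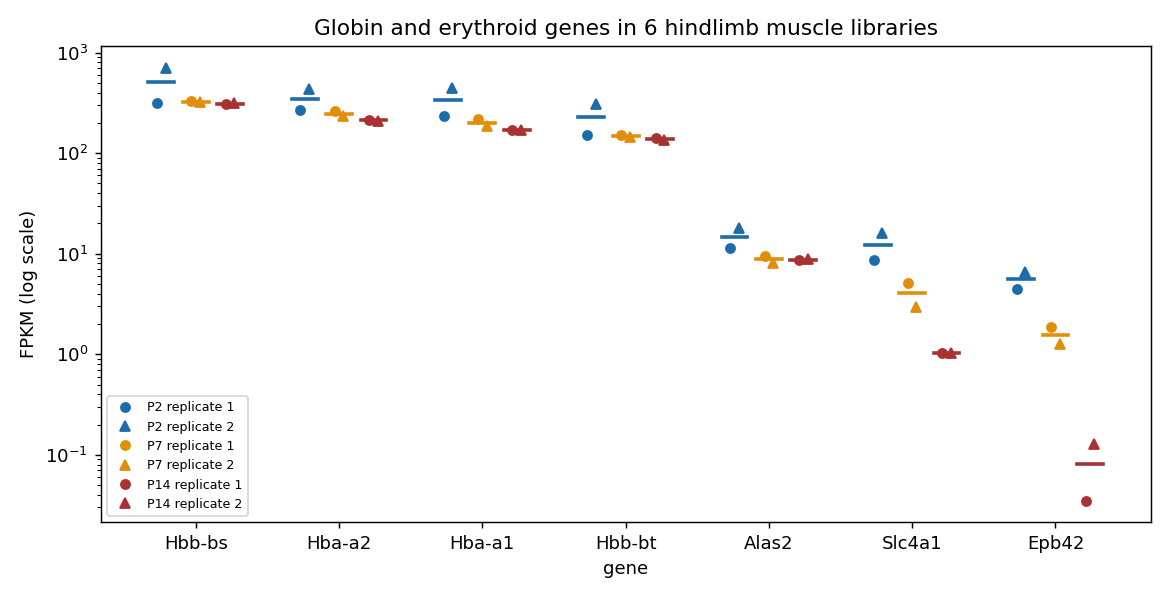
FPKM of 7 globin and erythroid genes on a log axis, by stage (colour) and replicate (circle or triangle), with a line at the mean of 2 libraries. All 7 genes stand highest in P2 replicate 2. Slc4a1 fell from 12.27 to 1.029 FPKM and Epb42 from 5.553 to 0.082 FPKM in the stage means of P2 and P14.

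Alas2 (X chromosome, 150547375 to 150570638) stood far below the globins and followed them. It was at 11.34 and 18.19 FPKM at P2, 9.531 and 7.994 at P7, and 8.597 and 8.772 at P14. The P14 libraries lay within the range of P7, and both were below P2. Alas2 differed by -0.67 from P2 to P14 on the log2 scale and did not pass the test (SE 0.233, limma adjusted p = 0.0798); it was called lower under the 3 alternatives just named and with median-of-ratios scaling, where Hba-a1 was called too. The locus overlaps Apex2 on the opposite strand, at 3.22 to 5.90 FPKM, and whether counting used the strand is not stated. Alas2 is X-linked, and P2 replicate 2, with 74.73 FPKM of Xist, the transcript of the inactive X chromosome, differed in this from P2 replicate 1, with 0.104. P7 replicate 1 had 61.16 FPKM of Xist and P7 replicate 2 had 0.41, and the P14 libraries had 0.567 and 0.035, with the Y-linked Ddx3y at 28.38 and 24.5. Each of P2 and P7 thus held 1 library high in Xist and P14 held none, so stage and sex are partly confounded between P14 and the earlier stages. Its part in the Alas2 values was not tested.

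The membrane genes Slc4a1 and Epb42 were lower at each later stage. Slc4a1 (chromosome 11, 102348824 to 102366203) was at 8.662 and 15.88 FPKM at P2, 5.104 and 2.951 at P7, and 1.019 and 1.04 at P14. Epb42 (chromosome 2, 121017891 to 121037072) was at 4.476 and 6.629 FPKM at P2, 1.857 and 1.273 at P7, and 0.035 and 0.129 at P14. No library of one stage overlapped another stage for either gene. Among all tested genes P7 lay below P2 without overlap in 53.9%, P14 below P2 in 35.2% and P14 below P7 in 15.3%. The mean of Slc4a1 was 11.9-fold lower and that of Epb42 67.8-fold lower at P14 than at P2, the latter resting on P14 values near the lower end of the table.

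Both falls passed the test from P2 to P14. Slc4a1 fell by 2.65 on the log2(FPKM + 1) scale (SE 0.309, limma adjusted p = 0.00347) and Epb42 fell by 2.58 (SE 0.217, limma adjusted p = 0.00163). The pseudocount understates the change of genes this low. Calls of lower expression made up 12.9% of all tested genes in this comparison, against 2 of the 7 members, and calls of higher expression 11.5%, against none. Over all tested genes 1744 were lower and 1557 higher, and with scaling to the FPKM sum without globins 4418 were lower and 1402 higher. The Slc4a1 call held in all 21 alternatives and the Epb42 call in all 20 that could test it.

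**Figure D2:**
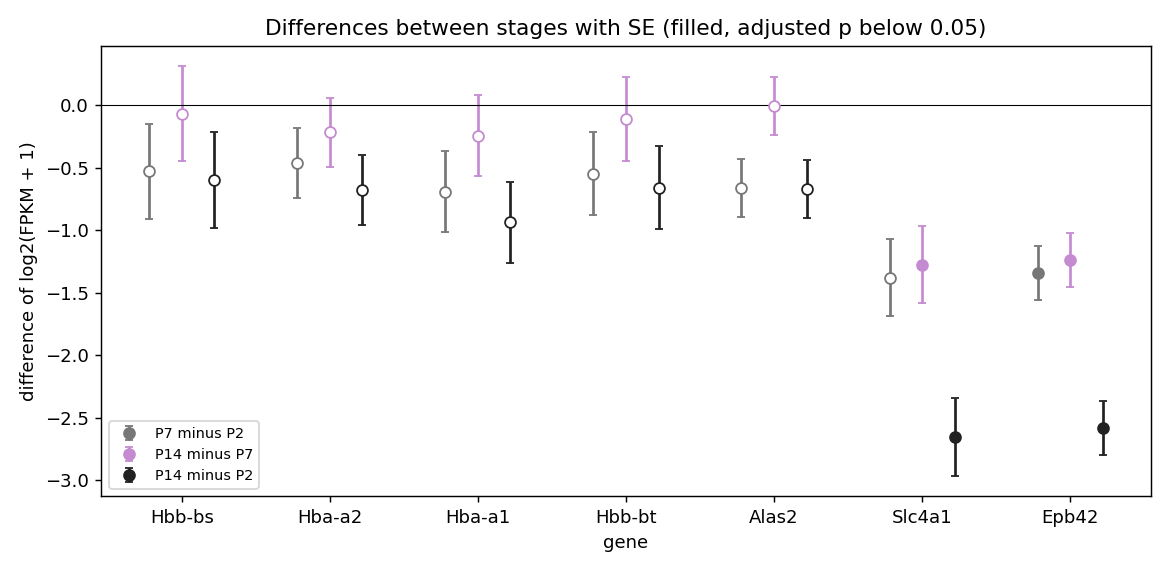
Difference of log2(FPKM + 1) with its SE for 7 genes in 3 comparisons of stages; filled points had a limma adjusted p below 0.05. Slc4a1 and Epb42 lie near -2.6 for P14 minus P2 while the globins and Alas2 lie between -0.94 and -0.60.

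The steps between neighbouring stages were smaller and less secure. From P2 to P7, Epb42 fell by 1.34 (SE 0.217, limma adjusted p = 0.0473), 1 of 7 members against 1.18% of tested genes called lower, and this call was lost when any 1 of the 6 libraries was left out. Slc4a1 differed by -1.38 there without passing (limma adjusted p = 0.077), and the other 5 members had limma adjusted p of 0.141 to 0.382. The median of all tested genes was itself -0.271 in this comparison and -0.006 after median-of-ratios scaling, which also removed the Epb42 call. From P7 to P14, Slc4a1 fell by 1.27 (limma adjusted p = 0.048) and Epb42 by 1.24 (limma adjusted p = 0.0281), against 1.6% of tested genes called lower. Leaving out any library of P7 or of P14 ended both calls. The globins and Alas2 differed by -0.24 to -0.01 over this step, with limma adjusted p of 0.616 to 0.988.

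Ratios within a library do not depend on scaling between libraries, and they separated the membrane genes from the rest. The ratio of Slc4a1 to Alas2 was 0.764 and 0.873 at P2, 0.535 and 0.369 at P7, and 0.119 and 0.119 at P14. That of Epb42 to Alas2 was 0.395 and 0.364 at P2, 0.195 and 0.159 at P7, and 0.0041 and 0.0147 at P14. The stages did not overlap in either ratio. Between P2 and P14 the log2 ratio fell by 2.78 for Slc4a1 and by 5.61 for Epb42 (two-sided exact permutation of the 6 libraries over the 3 stages, p = 0.0222 each, the smallest p that its 90 arrangements can give; 0.0333 adjusted over 6 ratios). The Epb42 value rests on P14 levels of 0.035 and 0.129 FPKM: it ran from -6.59 to -4.63 between single libraries, and with a pseudocount of 1 in both terms it was -1.91 for Epb42 and -1.99 for Slc4a1. Against the mean log2 level of the 4 globins the falls were 2.79 for Slc4a1 and 5.62 for Epb42, with the same p values.

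The proportion of Alas2 to the globins moved between P2 and P14 by less than the gap between the P2 replicates. Alas2 amounted to 1.18 and 0.961 per 100 globin FPKM at P2, 0.998 and 0.903 at P7, and 1.03 and 1.07 at P14. The log2 ratio differed by -0.01 between P2 and P14, with differences between single libraries of -0.17 to 0.16 (exact permutation, p = 0.978), and moved to 0.13 or -0.14 when P2 replicate 1 or P2 replicate 2 was left out. The alpha to beta ratio was 1.07 and 0.863 at P2, 0.993 and 0.888 at P7, and 0.852 and 0.845 at P14. P2 replicate 2 fell among the older libraries, and the log2 difference of -0.18 did not pass (exact permutation, p = 0.222; adjusted p = 0.266). Within the beta pair, Hbb-bs held 67.1% to 69.9% in all 6 libraries. Mouse strains differ in the haplotype of the beta globin locus, the haplotype of these mixed-strain mice is not given, and the levels of Hbb-bs and Hbb-bt could depend on it. Hba-a1 held 44.0% to 51.0% of the alpha pair, highest in P2 replicate 2.

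**Figure D3:**
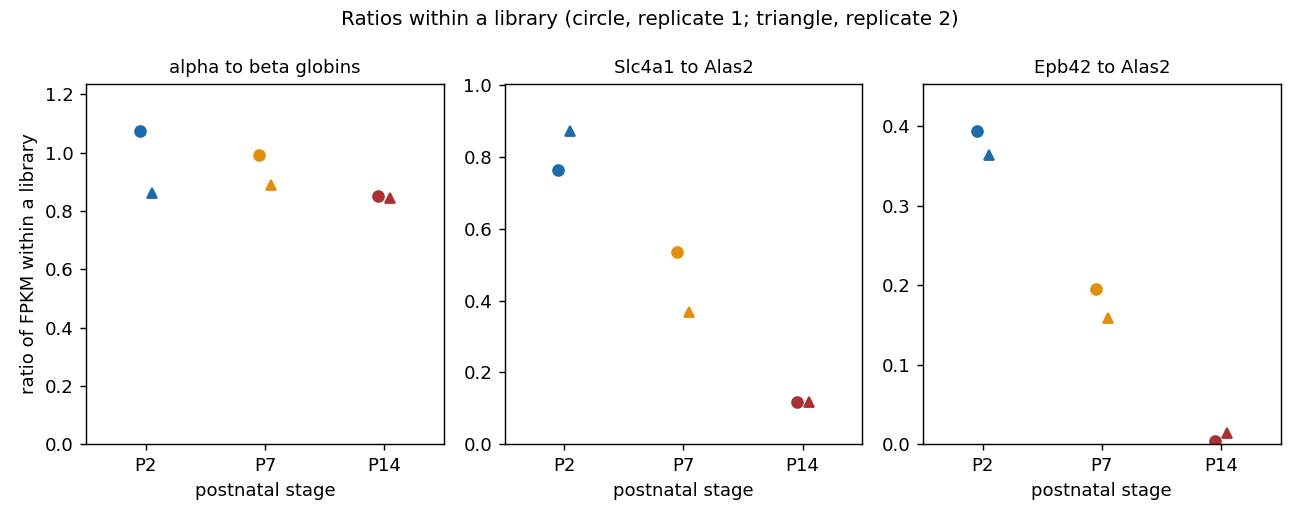
Ratio of FPKM within each library by stage (circle, replicate 1; triangle, replicate 2): alpha to beta globins, Slc4a1 to Alas2, and Epb42 to Alas2. Slc4a1 to Alas2 goes from 0.764 and 0.873 at P2 to 0.119 in both P14 libraries, while the alpha to beta ratio stays between 0.845 and 1.07.

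The authors' deposited table of P14 against P2, whose p-values are unadjusted, also has its largest folds among the members at Slc4a1 and Epb42. It gives Slc4a1 as 10.9-fold lower and Epb42 as 10.3-fold lower, each with the table's p of 5e-05, where values under 1 FPKM were raised to 1 before the ratio was taken. In the authors' deposited table Hba-a1 was 1.84-fold lower (p = 0.0001), Hbb-bt 1.53-fold lower (p = 0.0053), Hba-a2 1.51-fold lower (p = 0.00595), Hbb-bs 1.48-fold lower (p = 0.0171) and Alas2 1.56-fold lower (p = 0.12265). An unadjusted p below 0.05 with a lower value was given to 13.4% of the genes at 1 FPKM or more in that table. For P14 against P7 the authors' deposited table gives Slc4a1 as 4.63-fold lower (p = 0.0029), Epb42 3.52-fold lower (p = 0.0001), Hba-a1 1.41-fold lower (p = 0.00735) and Hba-a2 1.38-fold lower (p = 0.01015), with 9.03% of genes lower at that threshold. For P7 against P2 the authors' deposited table gives Epb42 as 2.78-fold lower (p = 0.00085) and Slc4a1 2.37-fold lower (p = 0.0064), with 6.39% of genes lower. The stage values of these tables share libraries. For the libraries of P2, the authors' deposited table lists Hbb-bs 1.88-fold higher in the second (p = 0.01345) and Hbb-bt 1.67-fold higher (p = 0.029), against 1.51% of genes.

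Other erythroid genes were read from 5 lists holding 78 names, of which 73 were measured and 60 tested. From P2 to P14, 28 fell, 6 rose and 26 were not called, with a median log2 difference of -0.642 beside -0.0458 over all tested genes, of which 12.9% were called lower and 11.5% higher. The count that rose lay near that share. Of the 28, 13 had passed the filter on low values through the P2 libraries alone and therefore had to be lower later; of the other 47 tested genes 15 fell. Embryonic and other globins were near the floor: the 7 measured stayed at or below 0.931 FPKM, and Hbb-y, Hbb-bh2 and Hbb-bh0 were listed at 0 in all libraries.

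Transcription factors and receptors of the lineage had 8 of 9 tested genes lower and none higher at P14, against 12.9% and 11.5% of all tested genes. Of the 8, 5 passed the filter through P2 alone, and of the other 4 tested genes 3 fell. Klf1, an activator of the adult beta globin genes, was at 3.276 and 2.656 FPKM at P2, 0.553 and 0.134 at P7, and 0.102 and 0 at P14, a difference of -1.91 on the log2 scale. Nfe2, a factor that acts at the globin locus control region, differed by -1.95 on the log2 scale. It was at 2.674 and 3.636 FPKM at P2, 1.768 and 0.591 at P7, and 0 and 0.143 at P14. Outside P2 it reached 1 FPKM only in P7 replicate 1, so Nfe2 needed P2 to pass the filter and no test is given. Gata1, the central erythroid factor that binds GATA motifs, was at 1.717 and 1.29 FPKM at P2, 0.279 and 0.228 at P7, and listed at 0 in both P14 libraries. Klf1 and Gata1 passed the filter through P2 alone, which fixed their direction, so no test is given for them. All P14 libraries were below all P2 libraries for these 3 genes, as they were for 35.2% of all tested genes. For Klf1 and Gata1 the filter fixed this order.

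In the list of membrane and cytoskeleton genes 9 of 18 tested fell and 3 rose, against 12.9% and 11.5% of all tested genes. Of the 9, 5 passed the filter through P2 alone, and of the other 13 tested genes 4 fell. Rhd, of the Rh blood group complex, was at 2.484 and 4.233 FPKM at P2, 0.722 and 0.271 at P7, and 0.052 and 0.051 at P14, a difference of -2.02 on the log2 scale whose direction was fixed by the filter, since it passed through P2 alone. Ermap, an erythroblast membrane protein, fell by 1.97 (limma adjusted p = 0.00286). The 3 that rose were Ank1, Cd59a and Aqp1, with Ank1 at 65.24 and 89.03 FPKM at P2 and 179.4 and 153 at P14. Ank1 is also expressed in muscle fibres and Aqp1 in endothelium.

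Among late erythroid and red cell enzymes 8 of 15 tested fell and 1, Bpgm, rose, against 12.9% and 11.5% of all tested genes. Of the 8, 3 passed the filter through P2 alone, and of the other 12 tested genes 5 fell. Hemgn, a nuclear protein of erythroid cells, went from 4.553 and 4.941 FPKM at P2 to 1.052 and 0.73 at P7 and 0.032 in both P14 libraries. Its difference was -2.48 on the log2 scale. Outside P2 it reached 1 FPKM only in P7 replicate 1, so it needed P2 to pass the filter and no test is given. Car2, a carbonic anhydrase, fell by 2.12 (limma adjusted p = 0.00179) and Blvrb, biliverdin reductase B, by 1.60 (limma adjusted p = 0.00415). In haem synthesis and iron 3 of 18 tested genes were lower and 2 higher, counts near the shares of 12.9% and 11.5% over all tested genes, with a median of 0.104. Tfrc, the transferrin receptor, rose from 28.01 and 41.12 FPKM at P2 to 146.7 and 136.4 at P14 (limma adjusted p = 0.00333), and Alas1, the form of the enzyme used outside erythroid cells, rose by 1.23 (limma adjusted p = 0.0157). Tfr2, the other transferrin receptor, was below 0.5 FPKM throughout and not tested.

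**Figure D4:**
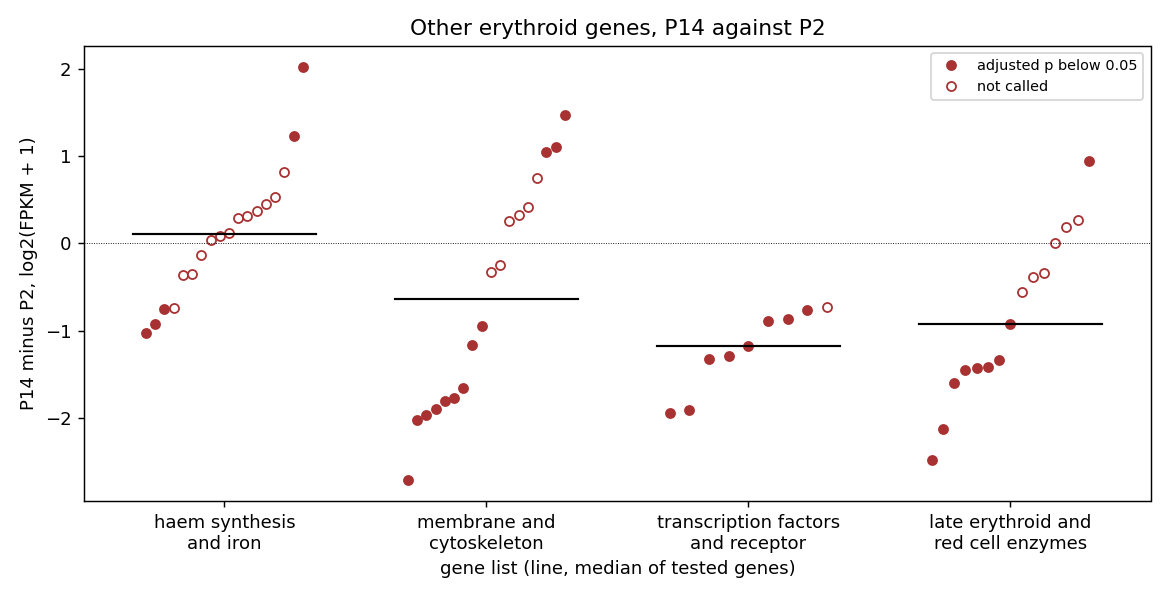
P14 minus P2 difference of log2(FPKM + 1) for the tested genes of 4 erythroid lists, each sorted by size; filled points had a limma adjusted p below 0.05 and lines mark the median. The medians are 0.104 for haem and iron genes, -0.638 for membrane genes, -1.18 for transcription factors and receptors and -0.928 for late erythroid genes.

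Between neighbouring stages the 5 lists had 11 genes lower and 0 higher from P2 to P7, and 2 lower and 7 higher from P7 to P14. Over all tested genes 1.18% were called lower and 0.111% higher in the first step, and 1.6% lower and 8.75% higher in the second. Among the genes lower in the first step, Rhag, Rhd, Cldn13 and Klf1 had passed the filter through P2 alone, which fixed their direction. Hemgn and Tspan33, also lower there, reached 1 FPKM outside P2 only in P7 replicate 1, so they needed P2 to pass. With scaling to the FPKM sum without globins the balance of the second step turned, to 7 lower and 5 higher in the lists and to 1108 lower and 609 higher over all tested genes, from 217 lower and 1187 higher. Both counts were unstable: leaving out a single library gave 0 or 1 called genes for the first step, and 0, 1 or 18 for the second.

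Markers of other cells that can accompany erythroblasts moved as well. All 9 tested of 10 neutrophil and marrow genes fell from P2 to P14, 3 of them having passed the filter through P2 alone. Their summed level was 289.8 and 173.3 FPKM at P2, 87.1 and 35.16 at P7, and 3.595 and 2.622 at P14, with the defining genes Elane, Camp and Ctsg listed at 0 in both P14 libraries. S100a9 and S100a8, calcium-binding proteins of neutrophils, led that list. Cartilage and bone genes had 5 of 8 lower and 1 higher. Spp1 and Ibsp fell most among these 8, and Ibsp was listed at 0 in both P14 libraries. Col2a1, the most abundant after Spp1, had means of 12.11 FPKM at P2, 27.23 at P7 and 3.024 at P14. It was not called from P2 to P14 (limma adjusted p = 0.12). The sum of the 8 genes went from 240.5 and 91.39 FPKM at P2 through 114.9 and 74.1 at P7 to 9.031 and 7.949 at P14. P2 replicate 2, the library with the most globin, had the lower sum of each pair at P2. Beside these and the next counts stand the 12.9% of all tested genes called lower and the 11.5% called higher. Of 3 tested platelet genes 2 fell, 1 of them, Ppbp, having passed the filter through P2 alone (sums of 26.98 and 37.79 FPKM at P2 and 12.05 and 12.24 at P14), of 8 macrophage genes 3 fell (sums of 53.13 and 71.99 at P2 and 42.1 and 39.86 at P14), and of 6 endothelial genes 2 rose (sums of 54.64 and 90.05 at P2 and 116.7 and 103.1 at P14). Muscle fibre genes, which define the labelled tissue, were high in sum at every stage, with 1739 and 2623 FPKM at P2 and 9610 and 7161 at P14. Of 5 tested, 4 rose. Among them Mb was at 5.011 FPKM and Myh4 at 11.68 FPKM in P2 replicate 1. The part of these cell types in the falls of Slc4a1, Epb42 and the erythroid lists was not tested.

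The 4 globins made up 0.554% and 0.906% of the protein-coding FPKM sum at P2, 0.570% and 0.498% at P7, and 0.309% and 0.357% at P14. By FPKM itself their sum was 964.8 and 1894 at P2, 955 and 884.9 at P7, and 832 and 822.6 at P14. The share separated P14 from the earlier stages further than the FPKM sum did.

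Protein-coding genes other than the 7 members were ranked by the root mean square distance of their pattern over the 6 libraries from the members' mean. Genes of the erythroid lists were not left out of the 11523 candidates. The nearest were Hist1h2bq at a distance of 0.0547 (Pearson r = 0.996), Knstrn at 0.0952, Ttyh3 at 0.0989, Arhgap11a at 0.101, Mmp14 at 0.11, Lmnb1 at 0.113, Aff3 at 0.113 and Tpx2 at 0.114. All 8 were highest in P2 replicate 2. Hist1h2bq was at 1.25 and 2.939 FPKM at P2, 0.815 and 0.688 at P7, and 0.32 and 0.22 at P14. It passed the filter through P2 alone, which fixed its direction. The members' own distances to that mean ran from 0.135 for Hba-a1 to 0.586 for Slc4a1. Among the members, Slc4a1 and Epb42 correlated at 0.994 over the 6 libraries and the alpha pair at 0.998, whereas Hbb-bs and Epb42 correlated at 0.665; the points share their libraries and depth.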

How the data were processed

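RNA from hindlimb muscle was sequenced after ribosomal depletion with a stranded kit, per the labels' protocols. The submitters' processing notes name CASAVA 1.2-14, FastQC 0.10.1, TopHat2 2.0.8, Cufflinks 2.2.1, Cuffdiff 2.2.1 and GRCm38, and settings and annotation are not given in the sources used here. The authors deposited FPKM per gene and library, without saying how libraries were scaled to each other. The authors' deposited comparison tables hold, per the file headers, a fold change as a ratio and an unadjusted p-value; their stage values are scaled separately in each table.

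Genes with at least 1 FPKM in at least 2 of 6 libraries (13566) were tested on log2(FPKM + 1) with limma 3.58.1 in R 4.3.3, using a mean per stage, a variance trend and 3 residual and 3.8 prior degrees of freedom. Tests were two-sided, Benjamini-Hochberg adjustment ran over the whole tested table, and calls were made at an adjusted p below 0.05. The procedure was tested on simulated data. The members and gene lists were chosen with earlier results of these data known. Named genes are all members, up to 3 tested genes per erythroid list with the largest change from P2 to P14 and any at 0 throughout, the 2 most abundant genes of other marker lists, and the 8 nearest genes by pattern; other genes were named after their values were seen.

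The test of ratios within a library was added after seeing the data. It replaced a limma fit with each library's globin mean subtracted from every gene, which gave adjusted p = 6.51e-06 for Slc4a1 and 0.000216 for Epb42 from P2 to P14. That fit was set aside because all genes then shared the error of the globin mean: limma estimated infinite prior degrees of freedom, although that shared error rests on 3 residual degrees of freedom, so its p-values were too small. Alternatives covered the pseudocount, filter, scaling, gene set, moderation, replicate block, summed paralogs, a minimum change and each library left out. The list names Hbb-b1, Hbb-b2, Abcb10, Zfpm1, Rhce and Acta1 are not analysed here. Some genes that the naming rule selects are not reported here.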

Additional observations from a re-analysis of the deposited data

How the results depend on the processing

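Of the members, 2 were called from P2 to P14, 1 from P2 to P7 and 2 from P7 to P14. For P14 against P2 the count was 1 with a filter of 5 FPKM (which leaves Epb42 untested), 4 with median-of-ratios scaling, 7 with quantile normalization, 7 with scaling to the FPKM sum without globins, and 2 to 7 with a library left out. For P7 against P2 it was 0 with a pseudocount of 0.1, no filter, a filter of 5 FPKM, median-of-ratios scaling, no variance trend, the replicate block or only the 4 libraries compared, 2 with protein-coding genes only, and 0 to 0 with a library left out. For P14 against P7 it was 0 with a pseudocount of 5, no filter or the replicate block, 1 with a filter of 5 FPKM or no variance trend, and 0 to 2 with a library left out. Apart from the filter, the cause was not tested.

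For the 5 erythroid lists, 34 genes were called from P2 to P14, with 14 under a filter of 5 FPKM and 20 to 35 with a library left out (20 without P14 replicate 1). From P2 to P7, 11 were called, with 1 at a pseudocount of 0.1, 0 with no filter, 4 with a filter of 5 FPKM, 1 with median-of-ratios scaling, 7 with quantile normalization, 22 with protein-coding genes only, 7 with no variance trend, 3 with the replicate block, 1 with only the 4 libraries compared, and 0 to 1 with a library left out. From P7 to P14, 9 were called, with 14 at a pseudocount of 0.1, 0 with no filter, 16 with median-of-ratios scaling, 19 with protein-coding genes only, 2 with the replicate block, 18 with only the 4 libraries compared, 5 with a log2 change of at least 1, and 0 to 18 with a library left out. With median-of-ratios scaling 7 of the 16 were lower, against 2 of 9.

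Same-numbered replicates did not deviate together (correlation across genes -0.159 to 0.0304 between stages) and the labels give no pairing, so the replicate block is given only here; under it the members called from P2 to P14 stayed at 2. Over all tested genes, calls from P2 to P14 numbered 3301, with 1534 with no filter, 5820 with scaling to the FPKM sum without globins and 973 without P14 replicate 1 (630 lower and 343 higher). Calls from P2 to P7 numbered 175, with 11 to 694 over the alternatives that moved them, and from P7 to P14 1404, with 7 to 3078. Depth is unknown, so values such as 0.035 FPKM for Epb42 carry no counting interval.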
